A study of Mus musculus with 12 samples.

Results

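The genes described here were 34 members of 2 linked programs, glycolysis and the transcriptional response to low oxygen, in mouse induced pluripotent stem (iPS) cell clones. The glycolysis group held 20 genes, namely 16 enzymes from hexokinase to lactate dehydrogenase and 4 genes for glucose and monocarboxylate transporters and pyruvate dehydrogenase kinase. The other 14 genes were targets of the hypoxia-inducible factor (HIF) that lie outside glycolysis. Members were found through the transcript accession of each array probe, which gave 56 probes for the 34 genes of 20660 gene symbols that the probes named. On all 12 arrays 55 of these 56 probes were well above background, the exception being a probe of P4ha1. The brightest probe of each of the 34 genes was among the 55 and was used wherever a gene is given 1 value.

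Total RNA of 12 iPS clones at passage 6, each on 1 one-colour Agilent array, was compared between 6 Aid+/+ and 6 Aid-/- clones. All 12 clones carried the Nanog-GFP reporter, came from male embryonic fibroblasts of a mixed C57BL6, DBA and 129S4 background by retroviral transfer of Oct3/4, Klf4 and Sox2, to which the study added c-Myc in some experiments, and were grown with LIF and puromycin on gelatin after earlier passages on feeder cells. Aid is activation-induced cytidine deaminase, and the comparison asks whether its loss changed gene expression in iPS cells. The Aid+/+ clones formed the series 967B (clones 967B2, 967B4 and 967B6) and 979B (clones 979B1, 979B3 and 979B4). The series of the Aid-/- clones were 979F (clones 979F1, 979F2 and 979F3) and 981E1/4/5 (clones 981E1, 981E4 and 981E5). Each clone is the progeny of 1 colony, and the labels do not say which clones of a series shared a fibroblast lot or which factors each clone received. Slide 1 held the arrays of 967B, slide 2 held 979F, and slide 3 was shared by 979B and 981E1/4/5, so that only slide 3 carried both genotypes.

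Glycolysis splits glucose into pyruvate, which lactate dehydrogenase turns into lactate when it does not enter the mitochondria. Pluripotent mouse cells are known for high glycolytic activity. HIF is a pair of proteins whose alpha subunit is marked for destruction by prolyl hydroxylases when oxygen is present. When oxygen or the hydroxylases are lacking, HIF binds the letters ACGTG or GCGTG near genes, among them most glycolytic enzymes and genes for mitophagy, angiogenesis, pH control and collagen modification.

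Levels are given as log2 of the processed spot intensity minus the 75th percentile of the array, so that 0 is the 75th percentile and 1 unit is a doubling of intensity. A level of one probe cannot be set against that of another probe, and all comparisons are of the same probe between clones. Between 31680 and 33652 of 55681 probes per array were well above background, and no spot was saturated. The 2 probes of Aid itself read high in the Aid-/- clones (means of 1.76 and 1.68) and low in the Aid+/+ clones (-3.50 and -4.12). They lie in its 3' untranslated part, beyond the disrupted part of the gene, and so do not check the loss. Clone 967B4 stood apart from its series, with 9.14% of the detected probes over 2-fold away from the mean of 967B2 and 967B6, and 981E5 came next with 3.81%, against 0.395% to 2.56% for the other 10 clones.

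The HIF targets and the glycolysis genes were high and low in largely the same clones. A glycolysis score was made as the mean over the 20 glycolysis genes of each gene's log2 value minus its mean over the 12 clones, and a HIF-target score in the same way from the 14 HIF targets, with no gene in both. The glycolysis score stood at -0.10, 0.36 and -0.05 in 967B2, 967B4 and 967B6, and at 0.45, 0.21 and 0.05 in 979B1, 979B3 and 979B4. It stood at -0.17, -0.39 and -0.34 in 979F1, 979F2 and 979F3, and at -0.06, -0.12 and 0.17 in 981E1, 981E4 and 981E5. Thus the 3 clones of 979F were the lowest, the 3 clones of 979B together with 967B4 and 981E5 were above the mean of all clones, and the genotypes overlapped.

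The HIF-target score spread further. It stood at -0.36, 0.29 and -0.26 in 967B2, 967B4 and 967B6 and at 0.71, 0.45 and 0.19 in the 979B clones in the same order as above. In the 979F clones it stood at -0.04, -0.59 and -0.46 and in the 981E1/4/5 clones at -0.22, -0.10 and 0.38. The same 5 clones lay above 0 in both scores. Over the 12 clones Pearson's r between the scores was 0.923 and Spearman's rho 0.860, and the HIF-target score changed by 1.45 log2 units for each unit of the glycolysis score.

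**Figure D1:**
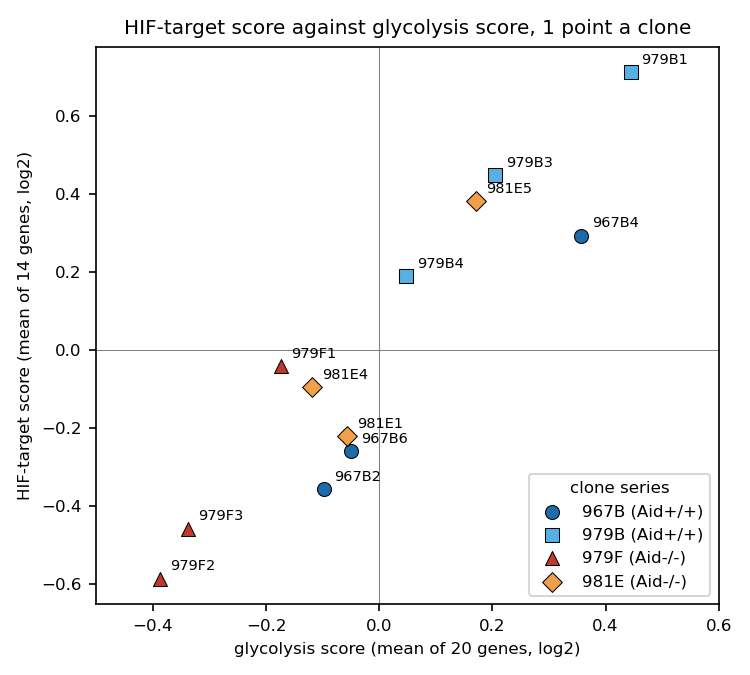
HIF-target score (vertical axis, mean of 14 genes, log2) against glycolysis score (horizontal axis, mean of 20 genes, log2), 1 point for each of the 12 clones, coloured by clone series. The 979F clones lie at the lower left, and the 979B clones, 967B4 and 981E5 at the upper right, with r = 0.923.

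The relation was not only one between series. With the mean of each series removed, r was 0.950, and within-series differences made up 38.2% of the variance of the glycolysis score and 41.8% of that of the HIF-target score. In all 4 series the clone with the highest glycolysis score also had the highest HIF-target score (967B4, 979B1, 979F1 and 981E5), and in 3 of 4 series the whole order of the clones was the same. Within the 6 Aid+/+ clones r was 0.911 and within the 6 Aid-/- clones 0.937. Without 967B4 and 979B1, the 2 clones farthest from the median glycolysis score, r was 0.907, without 967B4 alone 0.941 and without 981E5 alone 0.923. These are descriptions over 12 points that share the normalization of each array. The scores also ran against the brightness of the arrays, with r of -0.63 (glycolysis) and -0.62 (HIF targets) with the 75th percentile of the signal and of -0.70 and -0.60 with its median, and their part in the relation was not tested.

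The leading clone of each series was picked by the scores of these same genes, so its counts of members are a description only. In 967B4, 18 of 20 glycolysis genes and 12 of 14 HIF targets lay above the mean of the 2 other clones of the series, with median differences of 0.38 and 0.58, while the median over all detected probes was 0.05. In 979B1 the counts were 19 of 20 and 13 of 14, in 979F1 they were 17 of 20 and 13 of 14, and in 981E5 they were 17 of 20 and 14 of 14. The median differences in these 3 clones were 0.29, 0.14 and 0.27 for glycolysis genes and 0.42, 0.51 and 0.38 for HIF targets, while that over all detected probes lay between -0.03 and 0.01. Of all detected probes, 54.8% lay above the mean of the mates in 967B4, 45.4% in 979B1, 52.1% in 979F1 and 51.2% in 981E5.

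**Figure D2:**
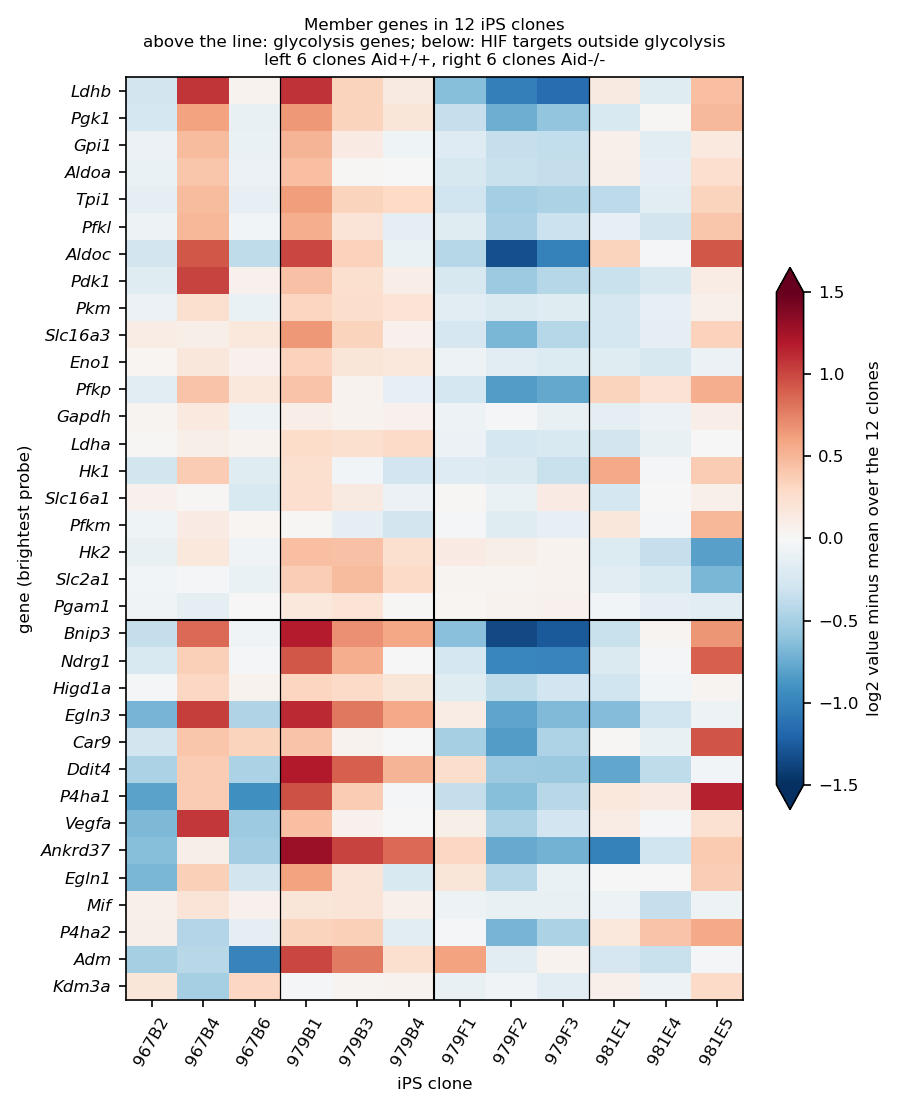
Heat map of the 34 members (rows, brightest probe, glycolysis genes above the line and HIF targets below it, each ordered by likeness to the glycolysis score) in the 12 clones (columns), as the log2 value minus the gene's mean over the clones, with colours saturating at 1.5. The 979B columns, 967B4 and 981E5 are mostly red and the 979F columns mostly blue. Exceptions include the lowest rows of the glycolysis block, such as Hk2 and Slc2a1, and Kdm3a at the bottom, which is blue in 967B4.

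Gene by gene, 10 of the 14 HIF targets and 14 of the 20 glycolysis genes had an r above 0.7 with the glycolysis score, each glycolysis gene being left out of the score it was set against. The median r was 0.74 for the HIF targets and 0.82 for the glycolysis genes, beside a median of 0.06 over the 28322 probes that were well above background with a value on all arrays. Among those probes 13.2% had an r above 0.7 and 6.53% one below -0.7, so that many other transcripts followed the same order of clones. The closest HIF targets were Bnip3 (0.96), which encodes a mitochondrial receptor for mitophagy, Ndrg1 (0.92), a stress-response gene, Higd1a (0.90), a regulator of the respiratory chain, and Egln3 (0.86), an oxygen-sensing prolyl hydroxylase. The closest glycolysis genes were Ldhb, Pgk1 and Gpi1 (each 0.96), followed by Aldoa, Tpi1 and Pfkl (each 0.94).

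At the other end stood Kdm3a (-0.11), which encodes a histone H3 lysine 9 demethylase, and among the glycolysis genes Pgam1 (-0.01), a phosphoglycerate mutase, Slc2a1 (0.11), the glucose transporter GLUT1, and Hk2 (0.15), the inducible hexokinase. Adm, the vasodilator adrenomedullin, had an r of 0.35 over the 12 clones and of 0.75 with series means removed. Egln1, the main prolyl hydroxylase of HIF, went from 0.71 to 0.95 in the same way, and P4ha1, a collagen prolyl hydroxylase, from 0.75 to 0.95. Other members fell, such as Ldha from 0.76 to 0.49 and Slc16a3 from 0.86 to 0.62. In that version 11 HIF targets and 13 glycolysis genes had an r above 0.7. With series means removed the median r was 0.83 for the HIF targets and 0.86 for the glycolysis genes, against 0.04 over all detected probes.

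**Figure D3:**
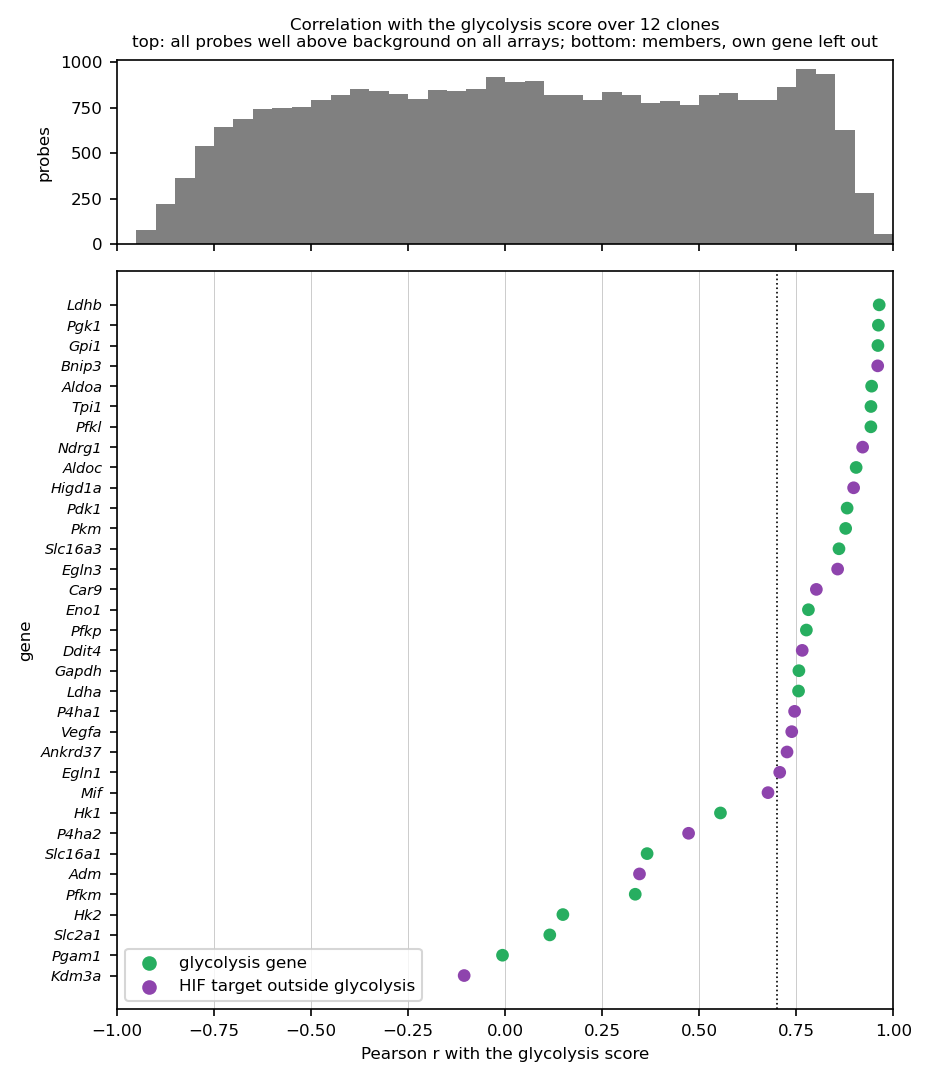
Pearson r with the glycolysis score over the 12 clones, as a histogram over all 28322 detected probes (top) and for each member with its own gene left out of the score (bottom, green for glycolysis genes and purple for HIF targets, dotted line at 0.7). Most members lie right of 0.7, where 13.2% of all detected probes lie, while Kdm3a, Pgam1, Slc2a1 and Hk2 lie near 0.

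The promoters of members that followed the score and of members that did not are shown to set their letters side by side. Sequences are the 250 bases before the gene's most upstream start in RefSeq on GRCm38.p6 (the array was designed on mm9), written 5' to 3' on the strand of the gene, and capitals mark ACGTG and GCGTG on either strand. The letters CACGTG hold ACGTG on both strands and are counted there as 2 matches. The first 5 are of genes with an r above 0.7 (Bnip3, Pgk1, the HIF-induced gene Ankrd37, Egln3 and Ldha) and the last 3 of genes with an r below 0.2 (Slc2a1, Hk2 and Kdm3a).
Bnip3 (chr7:138909507-138909756, - strand): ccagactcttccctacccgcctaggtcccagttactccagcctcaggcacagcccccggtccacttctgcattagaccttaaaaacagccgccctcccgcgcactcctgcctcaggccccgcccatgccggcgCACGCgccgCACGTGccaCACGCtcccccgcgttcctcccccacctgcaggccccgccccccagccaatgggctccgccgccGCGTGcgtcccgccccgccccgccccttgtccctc
Pgk1 (chrX:106186850-106187099, + strand): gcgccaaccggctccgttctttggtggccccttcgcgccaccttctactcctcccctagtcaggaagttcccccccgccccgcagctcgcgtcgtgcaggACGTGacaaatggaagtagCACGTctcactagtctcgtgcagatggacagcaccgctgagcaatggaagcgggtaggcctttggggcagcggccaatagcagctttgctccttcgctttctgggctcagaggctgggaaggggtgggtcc
Ankrd37 (chr8:45999851-46000100, - strand): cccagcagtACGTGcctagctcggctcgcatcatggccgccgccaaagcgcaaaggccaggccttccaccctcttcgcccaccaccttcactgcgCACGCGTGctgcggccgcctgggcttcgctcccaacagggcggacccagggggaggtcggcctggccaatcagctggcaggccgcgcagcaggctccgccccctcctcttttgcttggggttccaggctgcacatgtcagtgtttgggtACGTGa
Egln3 (chr12:54203875-54204124, - strand): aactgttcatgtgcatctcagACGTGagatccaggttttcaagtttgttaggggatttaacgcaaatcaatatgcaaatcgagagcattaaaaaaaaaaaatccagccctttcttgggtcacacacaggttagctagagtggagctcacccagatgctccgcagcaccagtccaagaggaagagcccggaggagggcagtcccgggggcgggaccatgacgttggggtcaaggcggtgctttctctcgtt
Ldha (chr7:46845554-46845803, + strand): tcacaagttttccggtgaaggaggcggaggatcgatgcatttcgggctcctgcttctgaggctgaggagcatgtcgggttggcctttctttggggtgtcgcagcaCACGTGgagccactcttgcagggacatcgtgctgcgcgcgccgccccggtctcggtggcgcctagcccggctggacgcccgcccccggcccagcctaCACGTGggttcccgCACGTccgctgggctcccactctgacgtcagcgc
Slc2a1 (chr4:119108495-119108744, + strand): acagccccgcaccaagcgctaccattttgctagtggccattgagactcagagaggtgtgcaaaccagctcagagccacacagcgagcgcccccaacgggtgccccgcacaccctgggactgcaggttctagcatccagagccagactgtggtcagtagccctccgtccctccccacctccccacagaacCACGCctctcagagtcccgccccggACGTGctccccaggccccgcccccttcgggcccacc
Hk2 (chr6:82774455-82774704, - strand): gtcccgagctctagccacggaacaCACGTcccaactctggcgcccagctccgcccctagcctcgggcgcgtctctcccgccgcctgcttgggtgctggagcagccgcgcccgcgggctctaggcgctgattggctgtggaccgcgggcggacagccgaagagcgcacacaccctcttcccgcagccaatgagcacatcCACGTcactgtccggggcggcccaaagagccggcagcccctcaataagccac
Kdm3a (chr6:71632918-71633167, - strand): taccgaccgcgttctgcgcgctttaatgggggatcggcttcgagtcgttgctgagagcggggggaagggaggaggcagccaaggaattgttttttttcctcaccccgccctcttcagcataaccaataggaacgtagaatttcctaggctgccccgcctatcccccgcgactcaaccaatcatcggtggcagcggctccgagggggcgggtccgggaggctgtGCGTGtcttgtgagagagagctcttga

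All 8 held at least 1 match, from 1 in Egln3 and in Kdm3a to 5 in Bnip3 and in Ldha, and both groups shown held them. Promoters were found for 33 of the 34 members (not Ndrg1). ACGTG was present in 16 of 33, or 48.5%, where 16.5% of 27025 genes with a promoter had it, and GCGTG in 19 of 33, or 57.6%, where 28.3% had it. Either one was present in 18 of 23 members with an r above 0.7 and in 8 of 10 with an r of 0.7 or below. Both sets of letters hold CG, and the median GC content was 62.8% in the members' promoters and 52.0% over all genes, whose part in these shares was not tested. The match is one of letters in a short window and says nothing of HIF binding in these clones.

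Among the glycolytic enzymes the largest ranges between clones were at Aldoc, Ldhb, Pfkp and Pgk1. Ldhb, which encodes the lactate dehydrogenase subunit of heart-type tissues, stood at 5.90, 7.25 and 6.23 in the 967B clones and at 7.26, 6.51 and 6.31 in the 979B clones. In 979F it stood at 5.54, 5.16 and 5.04 and in 981E1/4/5 at 6.32, 6.00 and 6.63. The 979F clones were thus the 3 lowest, and 967B4 and 979B1 the 2 highest. Aldoc, the aldolase of brain, stood at 3.99, 5.19 and 3.89 in 967B, at 5.26, 4.61 and 4.17 in 979B, at 3.83, 2.95 and 3.25 in 979F and at 4.60, 4.25 and 5.20 in 981E1/4/5, a span of 4.98-fold between 979F2 and 979B1. Its 3 highest clones were 979B1, 981E5 and 967B4, of both genotypes.

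Pgk1, the phosphoglycerate kinase that makes the first ATP of the pathway, stood at 7.89, 8.77 and 8.05 in 967B and at 8.80, 8.50 and 8.34 in 979B. It stood at 7.81, 7.43 and 7.56 in 979F and at 7.93, 8.18 and 8.65 in 981E1/4/5. Its order of clones was nearly that of Bnip3, with an r of 0.98 between them. Pfkp, the platelet-type phosphofructokinase, stood at 2.72, 2.15 and 2.23 in 979F and between 2.82 and 3.54 in the other 9 clones, so that 979F lay below all of them. The liver-type enzyme Pfkl had an r of 0.78 with Pfkp and of 0.56 with the muscle-type Pfkm, which spanned only 2.43 to 3.21.

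Ldha, the lactate dehydrogenase subunit of muscle, had no overlap between the genotypes at its brightest probe. In 967B it stood at 8.87, 8.95 and 8.91 and in 979B at 9.13, 9.09 and 9.14, against 8.77, 8.59 and 8.63 in 979F and 8.58, 8.74 and 8.86 in 981E1/4/5. The nearest clones of the genotypes were 967B2 and 981E5, which were almost level. Eno1, the main enolase, stood between 8.57 and 8.88 in the Aid+/+ clones and between 8.29 and 8.46 in the Aid-/- clones. Mif, a cytokine and HIF target, stood between 8.89 and 9.02 and between 8.47 and 8.75. These 3 were the only ones of the 34 brightest probes without overlap of the genotypes, where 3.69% of the detected probes had none in either direction.

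Gapdh, which is often used to normalize RT-PCR, had 7 probes that differed in how far apart they set the genotypes. At the brightest, the Aid+/+ clones stood between 9.48 and 9.71 with a mean of 9.62 ± 0.08 and the Aid-/- clones between 9.42 and 9.66 with a mean of 9.51 ± 0.09 (SD, n = 6 each), a difference of -0.11 ± 0.07 (SE). At the dimmest probe (A_55_P1994258) the means were 6.13 and 5.61, the difference was -0.52 ± 0.09 and the genotypes did not overlap. All 7 probes were lower in the Aid-/- clones, and 4 of them did so without overlap. Of the 3 Ldha probes, the brightest had a difference of -0.32 and the other 2 had -0.56 and -0.57. At the Ldha probe with -0.56 the genotypes overlapped narrowly, with a lowest Aid+/+ value of 6.081 and a highest Aid-/- value of 6.084. They also overlapped at a dimmer Mif probe (A_55_P2068265), with 7.88 and 7.92. Between probes of 1 gene r over the clones ran from 0.60 for the 2 probes of Pfkp to 0.999 for 2 of those of Bnip3.

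Hk1, the housekeeping hexokinase, overlapped between the genotypes and between all pairs of series but 981E1/4/5 and 979F, where 981E1/4/5 was higher. It stood at 3.00, 3.66 and 3.1 in 967B, at 3.52, 3.24 and 3.00 in 979B, at 3.09, 3.07 and 2.95 in 979F and at 3.85, 3.26 and 3.67 in 981E1/4/5. Hk2 had an r of -0.30 with Hk1 over the 12 clones, although both genes ordered the clones alike within 967B, 979B and 979F. It stood at 3.52, 3.79 and 3.58 in 967B, at 4.08, 4.07 and 3.88 in 979B, at 3.76, 3.72 and 3.68 in 979F and at 3.43, 3.29 and 2.81 in 981E1/4/5, so that 979B was above and 981E1/4/5 below all other clones.

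Slc2a1 had nearly the pattern of Hk2, with an r of 0.97 between them over the 12 clones. It stood at 6.44, 6.45 and 6.37 in 967B and at 6.84, 6.95 and 6.76 in 979B. In 979F the 3 clones read 6.52 each, and in 981E1/4/5 they stood at 6.31, 6.25 and 5.79. Clone 981E5, above the mean in both scores, was the lowest at both Slc2a1 and Hk2. Pgam1 had an r of 0.79 with Hk2 and of 0.85 with Slc2a1 and spanned only 7.53 to 7.91.

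Among the other transporters, Slc16a3, the lactate exporter MCT4, had an r of 0.86 with the score, and stood between 4.77 and 5.36 in the Aid+/+ and between 4.02 and 5.05 in the Aid-/- clones. Slc16a1, the monocarboxylate transporter MCT1, read low, between -3.09 and -2.59, with an r of 0.37. Pdk1, a kinase that inhibits pyruvate dehydrogenase, stood at 3.33, 4.52 and 3.57 in 967B and at 3.96, 3.76 and 3.61 in 979B. In 979F it stood at 3.27, 2.97 and 3.08 and in 981E1/4/5 at 3.18, 3.27 and 3.63. The highest Pdk1 value was that of 967B4, followed by 979B1.

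Bnip3 had the largest difference between genotypes and between series of all 34 brightest probes. It stood at 5.94, 7.16 and 6.25 in 967B and at 7.49, 6.98 and 6.88 in 979B. In 979F it stood at 5.68, 4.95 and 5.04 and in 981E1/4/5 at 5.96, 6.34 and 6.97. The 979F clones were the lowest, 979B1 and 967B4 the highest, and the span was 5.81-fold.

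Ankrd37, a small ankyrin-repeat gene induced by HIF, stood at 1.90, 2.64 and 2.02 in 967B, at 3.83, 3.56 and 3.40 in 979B, at 2.86, 1.79 and 1.83 in 979F and at 1.53, 2.25 and 2.94 in 981E1/4/5. All 3 clones of 979B lay above the other 9. Egln3 stood at 0.77, 2.50 and 1.02 in 967B and at 2.59, 2.26 and 2.04 in 979B, and between 0.68 and 1.58 in the 6 Aid-/- clones. Here 967B4 stood with 979B and away from its own series. Ankrd37 and Egln1 lie on chromosome 8, whose 908 detected probes stood 0.39 higher in 981E5 than in its mates (median), while the other detected probes had a median difference of 0.0013.

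Ddit4, an inhibitor of mTORC1 signalling, stood at 5.56, 6.43 and 5.57 in 967B, at 7.23, 6.94 and 6.55 in 979B, at 6.30, 5.50 and 5.49 in 979F and at 5.26, 5.66 and 6.01 in 981E1/4/5. Adm read low, at -2.31, -2.23 and -2.81 in 967B, -0.81, -1.04 and -1.57 in 979B, -1.22, -1.98 and -1.77 in 979F and -2.07, -2.15 and -1.84 in 981E1/4/5. In both genes 979B held the highest clone, and in Adm 967B held the 3 lowest. Ndrg1 stood between 1.20 and 2.37 in the Aid+/+ clones and between 0.45 and 2.34 in the Aid-/- clones.

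Vegfa, the angiogenic growth factor, stood at 0.88, 2.62 and 1.01 in 967B, at 2.00, 1.63 and 1.55 in 979B, at 1.64, 1.08 and 1.27 in 979F and at 1.66, 1.54 and 1.78 in 981E1/4/5. Its highest and lowest clones, 967B4 and 967B2, belonged to 1 series. Car9, a carbonic anhydrase of the cell surface, read low, with -2.84, -2.15 and -2.23 in 967B, -2.13, -2.51 and -2.55 in 979B, -3.06, -3.40 and -3.02 in 979F and -2.55, -2.67 and -1.62 in 981E1/4/5. Kdm3a stood at 4.52, 3.84 and 4.65 in 967B and between 4.17 and 4.62 in the other 9 clones, so that 967B4, high at most members, was its lowest. The collagen hydroxylases P4ha1 and P4ha2 had an r of 0.60 with each other, and Egln1 and Egln3 one of 0.71.

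**Figure D4:**
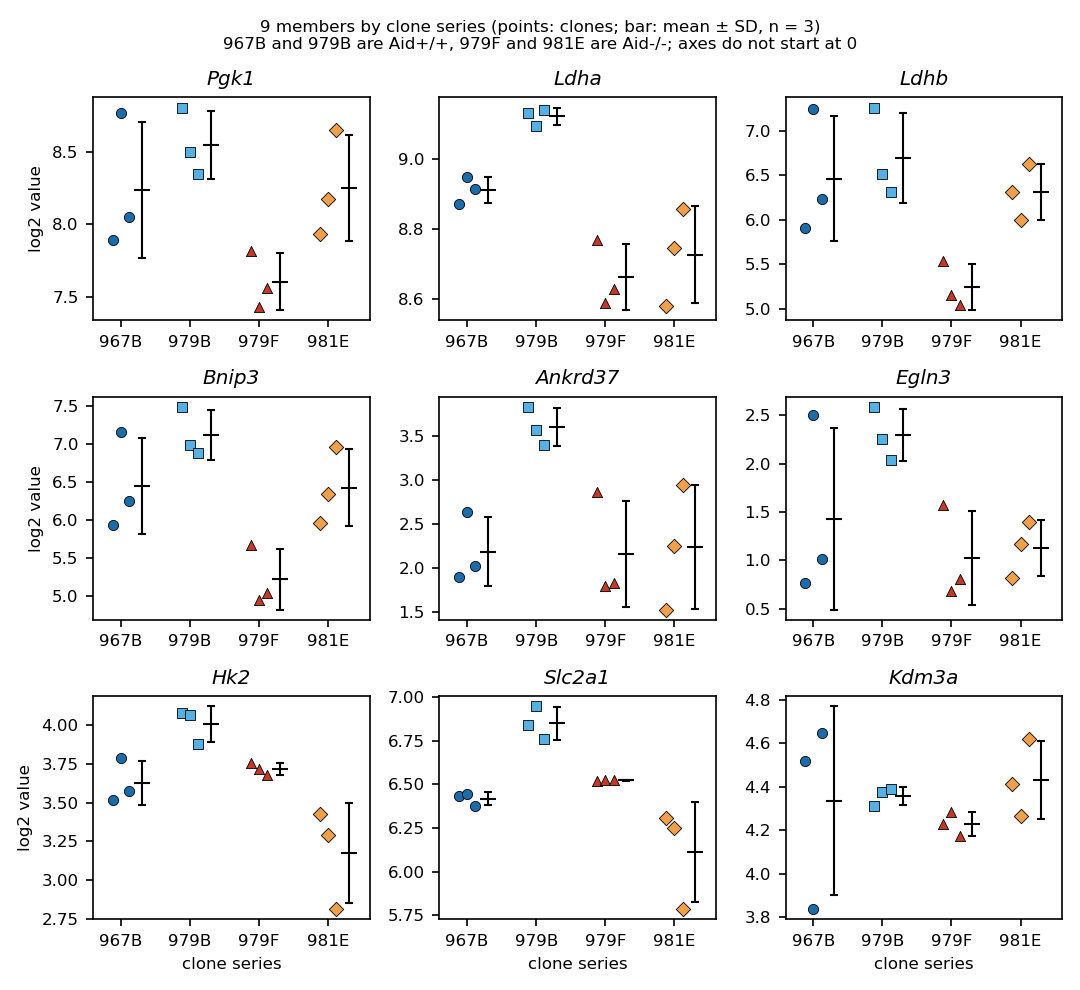
Log2 values of 9 members by clone series, with 1 point for each clone and a bar for the mean ± SD (n = 3). In Pgk1, Ldhb and Bnip3 the 979F clones are lowest and 1 clone each of 967B and 981E1/4/5 stands above its mates, in Hk2 and Slc2a1 the 981E1/4/5 clones are lowest, and in Kdm3a 967B4 is lowest.

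Between the genotypes, members lay lower in the Aid-/- clones without any single probe passing the test over all probes. In limma with 6 against 6 clones, 0 of 56 member probes had an adjusted p under 0.05, where 0.0611% of all 55681 probes had one, and the smallest adjusted p of a member was 0.0523, of a Gapdh probe. At an unadjusted p under 0.05 there were 28 member probes, all 28 of them lower in Aid-/-, where 12.5% of the detected probes were lower at that p. Some genes had several of these probes, and by brightest probe 12 of 34 genes had such a p, all lower. By the methods' t-test with Benjamini-Hochberg adjustment 6 member probes passed, among them the brightest probe of Eno1, where 0.647% of all probes did. With slide as a fixed block 5 passed, where 4.13% of all probes did, and since only slide 3 holds both genotypes that fit compares 981E1/4/5 with 979B. In all, 50 of 56 member probes lay lower in Aid-/-, with a median difference of -0.32, while 60.2% of the detected probes lay lower, with a median of -0.06. Clones of a series may share their fibroblasts, and the p-values then measure only the spread between these clones.

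By brightest probe, 30 of 34 members lay lower in Aid-/-. Eno1 differed by -0.32 ± 0.08 (SE, adjusted p = 0.124 in limma), Higd1a by -0.38 ± 0.10 (0.138) and Ldha by -0.32 ± 0.09 (0.142). The largest differences were of Bnip3 at -0.96 ± 0.36 (adjusted p = 0.276), Ldhb at -0.80 ± 0.32 (0.304), Egln3 at -0.79 ± 0.33, Ankrd37 at -0.69 ± 0.38, Ddit4 at -0.68 ± 0.30 and Pdk1 at -0.56 ± 0.19. In these genes the SD between the clones of 1 genotype reached from 0.22 (Pdk1, Aid-/-) to 0.82 (Ankrd37, Aid+/+), so the differences were of the size of the spread. Pgk1 differed by -0.46 ± 0.22, Hk2 by -0.37 ± 0.17, Slc2a1 by -0.31 ± 0.15 and Vegfa by -0.12 ± 0.27, while Hk1 differed by 0.06 ± 0.18.

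Over the groups, the glycolysis score was 0.15 ± 0.22 in Aid+/+ and -0.15 ± 0.20 in Aid-/- clones, and the HIF-target score 0.17 ± 0.41 and -0.17 ± 0.34 (SD, n = 6 each). The difference of -0.30 in the glycolysis score was -0.26 without 967B4 and -0.37 without 981E5, and that of -0.34 in the HIF-target score was -0.32 and -0.45. Relative to the mean of 10 reference genes the differences were -0.27 and -0.31. After quantile normalization the glycolysis score differed by -0.20 and 48 of 56 member probes lay lower.

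Between 979F and 979B, 55 of 56 member probes lay lower in 979F (median difference -0.52), where 53.8% of the detected probes did. The glycolysis score differed by -0.53 and the HIF-target score by -0.81, against -0.07 and 0.13 for 981E1/4/5 minus 967B and -0.23 and -0.43 for 981E1/4/5 minus 979B. Of the 56, 0 had an adjusted p under 0.05, where 0.614% of all probes had one, and 37 had an unadjusted p under 0.05 and were lower, where 12.0% of the detected probes were. By brightest probe 23 of 34 genes were lower at that p. Bnip3 lay 3.72-fold lower in 979F, at -1.89 ± 0.36 (SE, adjusted p = 0.0531), Ldhb at -1.45 ± 0.36 (0.108), Ankrd37 at -1.43 ± 0.39 (0.136), Aldoc at -1.34 ± 0.42 (0.188) and Egln3 at -1.27 ± 0.42 (0.208). The series share 1 estimate of the spread, and with clone 967B4 left out, which belongs to neither series, 11 member probes passed, where 2.36% of all probes did. The 2 series lay on different slides, so slide and genotype cannot be told apart in this pair.

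Between 981E1/4/5 and 967B, on slides 3 and 1, 38 of 56 member probes lay lower in the Aid-/- series, with a median of -0.12, where 60.2% of the detected probes lay lower, and 0 of 56 were called, where 0.196% of all probes were. At an unadjusted p under 0.05 there were 11, where 18.1% of the detected probes had such a p, so neither count stood far from the background. The HIF targets lay on either side, with 5 of 14 brightest probes lower, and Bnip3 differed by -0.02 ± 0.36 and Pgk1 by 0.02 ± 0.26. The difference between the 2 pairs was tested as a contrast of contrasts. It was called in 0 of 56 member probes, where 0.106% of all probes were called, and 18 had an unadjusted p under 0.05, where 13.2% of the detected probes had one. For Bnip3 this contrast was -1.87 ± 0.51 with an adjusted p of 0.267.

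**Figure D5:**
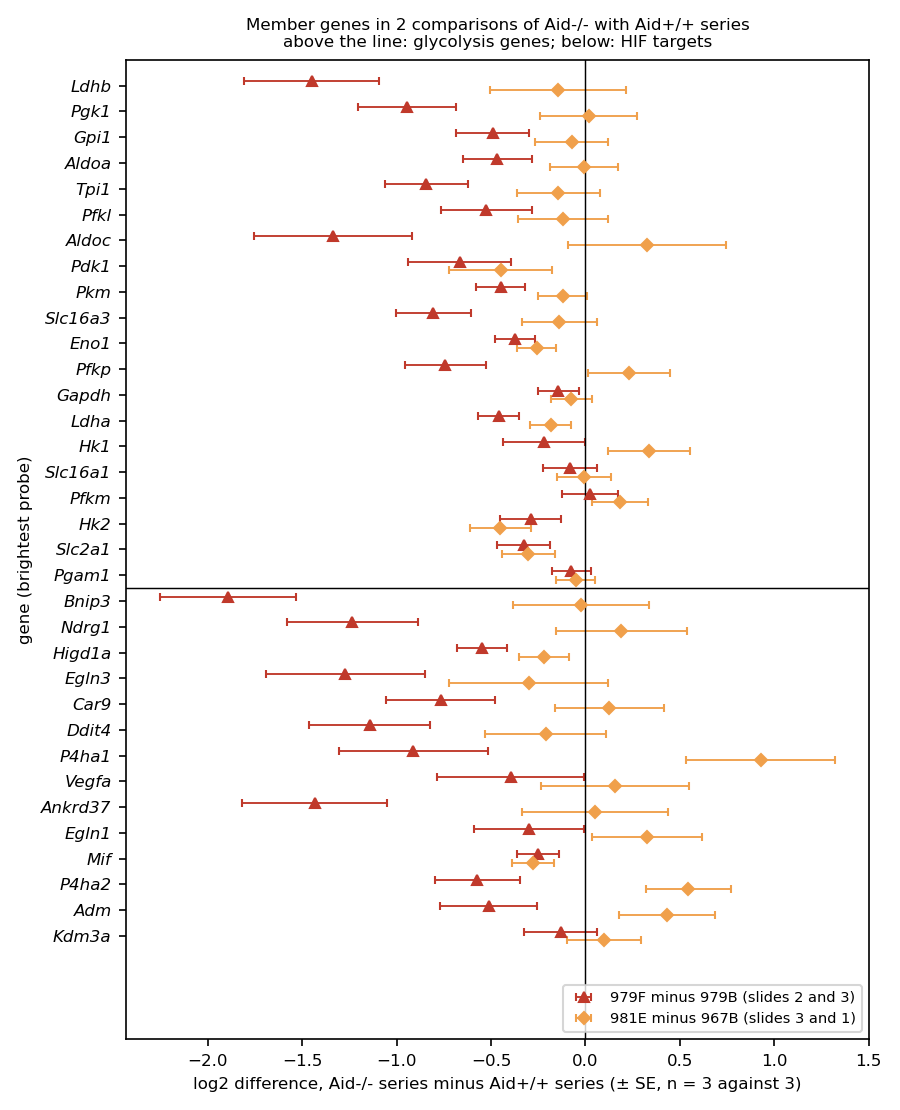
Log2 difference of the Aid-/- series minus the Aid+/+ series (horizontal axis, ± SE, 3 against 3 clones) for each member's brightest probe, as 979F minus 979B (triangles) and 981E1/4/5 minus 967B (diamonds). The triangles lie left of 0 in 33 of 34 genes and the diamonds on either side, for example -1.89 and -0.02 for Bnip3.

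On slide 3, which held both genotypes, 47 of 56 member probes lay lower in 981E1/4/5 than in 979B (median difference -0.35), where 58.5% of the detected probes did, and 5 of 56 were called, where 4.13% of all probes were. All 5 were lower in 981E1/4/5. Slc2a1 differed by -0.73 ± 0.14 (adjusted p = 0.0209), Hk2 by -0.83 ± 0.16 (0.0219), 2 dimmer probes of Ldha by -0.76 and -0.70 (0.0220 and 0.0312) and the dimmest probe of Gapdh by -0.57 (0.0294). Without either of 979B1 and 979B3 no member was called. Beside them, Bnip3 stood at -0.69 ± 0.36 (adjusted p = 0.363) and Pgk1 at -0.30 ± 0.26.

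Series of the same genotype differed as well. Between 979B and 967B, both Aid+/+, 51 of 56 member probes lay higher in 979B and 5 lower, with a median difference of 0.18, where 51.2% of the detected probes lay lower. Of the 56, 0 were called, where 0.711% of all probes were, and 11 had an unadjusted p under 0.05, where 13.3% of the detected probes had one. The smallest adjusted p was that of Adm, 1.31 ± 0.26 higher in 979B (0.0554). All 14 brightest HIF-target probes were higher in 979B, against 17 of 20 of the glycolysis genes. Between 979F and 981E1/4/5, both Aid-/-, 46 of 56 lay lower in 979F, where 48.9% of the detected probes did. Of the 56, 1 was called, where 3.02% of all probes were. That probe was of Pfkp, at -0.99 ± 0.21 (adjusted p = 0.0408), and it was not called without any single one of 967B6, 979F2, 979F3, 979B3, 979B4 or the 981E1/4/5 clones.

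Across all 4 series at once, the F test called 3 of 56 member probes, where 4.16% of all probes were called, and these were the dimmest Gapdh probe (adjusted p = 0.0340) and the 2 dimmer Ldha probes (0.0362 and 0.0399). At an unadjusted p under 0.05 it had 36 of 56, where 31.1% of the detected probes had one. By brightest probe 10 of 14 HIF targets and 11 of 20 glycolysis genes were among them. The range of the 4 series means had a median of 0.92 in the HIF targets and of 0.54 in the glycolysis genes, against 0.42 over the detected probes. These comparisons share clones with each other, so their counts are given side by side only.

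Of the genes that control HIF, the members Egln1 and Egln3 had an r of 0.71 and 0.86 with the glycolysis score. Of 7 further such genes, which were not members, 0 had an r above 0.7 with that score and 0 were called in any comparison. Hif1a and Epas1, the alpha subunits, had r values of -0.71 and -0.47 with the glycolysis score, and Egln2, another prolyl hydroxylase, had -0.89, while their partner Arnt had 0.60 and Vhl, which marks the alpha subunits for destruction, 0.25. Hif1a stood at 1.48, 1.97 and 2.00 in 979B and at 2.03, 2.14 and 2.08 in 979F. Between the genotypes it differed by 0.02, with means of 1.84 and 1.87 in Aid+/+ and Aid-/- clones.

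Of 20 further HIF targets, 17 were detected on all arrays and 7 of these had an r above 0.7 with the glycolysis score. They included Ero1a (0.96), an oxidase of the endoplasmic reticulum, Slc2a3 (0.95), the glucose transporter GLUT3, Bnip3l (0.94), a relative of Bnip3, Fam162a (0.92), a mitochondrial protein, and Plod2 (0.90), a collagen lysyl hydroxylase. Slc2a3 thus had the order of the score and Slc2a1 did not. Of the 20, 0 were called between genotypes or between 979F and 979B, where 0.0611% and 0.614% of all probes were. Between 979F and 979B, 7 were lower and 0 higher at an unadjusted p under 0.05. Of the detected probes, 12.0% were lower at that p. Hilpda, a lipid-droplet gene, had an r of 0.02. It was called in 981E1/4/5 against 979B (-0.85, adjusted p = 0.00514), where 4.13% of all probes were called. It was also called between series of the same genotype, at 0.71 for 979F minus 981E1/4/5 (0.0156), where 3.02% of all probes were called.

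Among 14 other isoforms of glycolysis and glycogen enzymes, 6 of 11 detected had an r above 0.7. Between 979F and 979B 1 of the 14 was called, where 0.614% of all probes were. It was Ldhc, the lactate dehydrogenase of testis, at -1.30 (adjusted p = 0.0489). Ldhc was also called between the Aid-/- series, at -1.26 for 979F minus 981E1/4/5 (0.0278), where 3.02% of all probes were called. Of 12 genes for the mitochondrial import of pyruvate or for pyruvate dehydrogenase and its control, 2 had an r above 0.7. Pdhb, a subunit of pyruvate dehydrogenase with an r of 0.01, was called in 981E1/4/5 against 979B at -1.40 (0.000452). In that comparison 4.13% of all probes were called. Pdhb was also called between series of 1 genotype, at 1.22 for 979B minus 967B (0.00153) and at 1.14 for 979F minus 981E1/4/5 (0.00154). Of all probes, 0.711% and 3.02% were called in these 2 comparisons. Of 16 genes of the tricarboxylic acid cycle, 7 had an r above 0.7 (median 0.64) and 0 were called in any comparison. Of 7 pentose phosphate genes, 1 had an r above 0.7. G6pdx, which opens that pathway, was called in 981E1/4/5 against 979B at -0.58 (0.0372), where 4.13% of all probes were called. Between the Aid-/- series 979F and 981E1/4/5, 2 of the 7 were called, where 3.02% of all probes were.

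Lists of cell type markers were set beside the scores. The mean level of 8 fibroblast markers had an r of -0.67 with the glycolysis score and of -0.40 with the HIF-target score, and their mean ran from -4.47 to -1.21 in the Aid+/+ clones and from -1.51 to -0.35 in the Aid-/- clones. All 12 arrays detected 4 of the 8, and Lum was detected on none. Col1a1 stood at -3.57 in 967B4, between -0.40 and 0.76 in the other Aid+/+ clones and between 0.40 and 2.01 in the Aid-/- clones. Of 7 pluripotency markers all were detected, and their mean had an r of 0.85 with the glycolysis score and ran from 4.64 to 5.17 in Aid+/+ and from 4.57 to 4.92 in Aid-/- clones. Taken singly, 2 of the 7 had an r above 0.7, with a median of 0.63 and a lowest r of -0.26. The part of either list in the result was not tested. Of the 9 cell stress genes, 3 were called across the series by the F test, where 4.16% of all probes were. Between the series on slide 3, 3 of the 9 were called, where 4.13% of all probes were. Between the Aid-/- series 2 were called (3.02% of all probes), between the Aid+/+ series 1 (0.711%) and between the genotypes 0. The mean of the 9 had an r of 0.16 with the glycolysis score. Single cell stress genes differed, and 2 of the 9 had an r above 0.7, with a median of 0.08 and a lowest r of -0.38.

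The 4 markers of primitive endoderm, 4 of trophoblast, 3 of neural cells and 3 of mesoderm had list means with r between -0.02 and 0.38 with the glycolysis score. Mixl1 was at background on all arrays, T and Sox17 were detected on 6 arrays each, and Cdx2 on 8. The 10 reference genes had a list mean with an r of 0.01, and 0 of them were called in any comparison.

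Outside all these lists, the genes most like the glycolysis score among 13357 genes were Ezh1 (r = 0.99 over the 12 clones), Lnx1 (0.98), Slc30a9, Neil2 and Igfbp2 (each 0.97), and Scaper, Pkp2, Armh4, Vill and Ckap5 (0.96). Those most like the HIF-target score were Rab39, Smc5, Fbxo3, Abtb1, Bmf and Jsrp1 (each 0.95), Ifnar2 and H2bu2 (0.94) and Crem and Hrc (0.93). They were picked as the highest of many, and the values are a description.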

How the data were processed

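Total RNA of 12 iPS clones was hybridised with Cy3 to 1-colour Agilent mouse arrays, 1 array per clone. The authors scanned the arrays with Agilent Feature Extraction 10.7.3.1, and the deposited processed intensity of each spot is background-subtracted and detrended but not normalized between arrays. The authors also deposited log2 values normalized to the 75th percentile in GeneSpring GX 11, which served as an alternative. Here log2 of the processed intensity was taken, control spots and spots with an outlier flag were left out, replicate spots of a probe were given their mean, and each array was centred on its own 75th percentile. The number of arrays limits the precision.

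Probes were named by matching their RefSeq accessions to gene symbols (27235 of 28685 such probes matched, GRCm38.p6). Groups were taken from the sample titles. All 55681 probes were fitted with limma 3.58.1 in R 4.3.3 (lmFit, eBayes, Benjamini-Hochberg, two-sided), once with 6 against 6 clones for the genotype and once with 4 series of 3 clones, which share 1 estimate of the spread. The code was tested on simulated data. Scores, correlations and figures were made in Python 3.11.15. Alternatives were quantile normalization, normexp background correction (offset 50), other filters, slide and series as blocks, the methods' t-test and leaving out each clone.

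The members, the other gene lists and the marker lists were chosen with earlier results of these data known. Values of every clone are given for members called by their brightest probe, for the 6 with the largest genotype difference, for the 6 with the largest range of series means and for 12 members named in any case. The others are given by range. Eno1 and Higd1a were added after their values were seen. Promoters were the 250 bases before the most upstream start in RefSeq.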

Additional observations from a re-analysis of the deposited data

Results flagged for a closer look

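In 3 of 68 groups of 6 clones, each a member's brightest probe in 1 genotype, 1 clone stood far from the other 5 by Dixon's criterion, where chance gives about 3.4. Pkm, the pyruvate kinase of the last ATP-making step, stood at 7.43 in 981E5 and between 7.10 and 7.22 in the other Aid-/- clones. Slc2a1 stood at 5.79 in 981E5 and between 6.25 and 6.52 in the others. Mif stood at 8.47 in 981E4 and between 8.71 and 8.75 in the others.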

How the results depend on the processing

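Of 56 member probes, 0 were called between genotypes in the analysis as reported. Each count here is followed by the share of all probes tested that was called in the same setting. Between genotypes the counts were 7 with normexp background correction (0.929%), 5 with detected probes only (1.69%), 5 with an intensity trend and robust estimation (0.517%), 6 by the methods' t-test (0.647%), 6 by that test on the deposited values (0.675%), 5 with slide as a fixed block (4.13%), 2 at an adjusted p under 0.1 (0.711%) and 28 at an unadjusted p under 0.05 (13.6%). For the F test over series (3) they were 0 with the percentile taken over detected probes (4.18%), 19 with normexp (7.29%), 19 with detected probes only (16.1%), 16 with the trend (6.28%), 13 at an adjusted p under 0.1 (8.70%) and 36 unadjusted (21.9%). For 979F against 979B (0) they were 1 with quantile normalization (1.09%), 12 with normexp (1.34%), 13 with detected probes only (3.59%), 11 with the trend (1.03%), 9 at an adjusted p under 0.1 (1.93%) and 37 unadjusted (14.6%). For 981E1/4/5 against 979B (5) they were 12 with normexp (5.79%), 12 with detected probes only (13.5%), 12 with the trend (5.67%), 0 at over 2-fold (2.13%), 11 at an adjusted p under 0.1 (7.49%) and 26 unadjusted (18.2%). For 979B against 967B (0) they were 1 with normexp (0.945%), 1 with detected probes only (2.42%), 1 with the trend (0.912%), 1 at an adjusted p under 0.1 (1.47%) and 11 unadjusted (10.5%). For 979F against 981E1/4/5 (1) they were 3 with normexp (4.68%), 5 with detected probes only (11.6%), 0 at over 2-fold (1.72%), 2 at an adjusted p under 0.1 (6.66%) and 14 unadjusted (18.4%). For 981E1/4/5 against 967B (0) the unadjusted count was 11 (12.8%) and for the contrast of contrasts (0) it was 18 (9.85%). The cause was not tested.

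Leaving out each clone in turn gave 0 to 1 called between genotypes (1 without 967B2 or 981E5), 0 to 12 by the F test and 0 to 11 for 979F against 979B (12 and 11 without 967B4, where 8.64% and 2.36% of all probes were called), 0 to 0 for 981E1/4/5 against 967B, 0 to 10 for 981E1/4/5 against 979B, 0 to 4 for 979B against 967B, 0 to 3 for 979F against 981E1/4/5 and 0 to 0 for the contrast of contrasts. The genotype difference ran from -0.37 to -0.24 in the glycolysis score and from -0.45 to -0.23 in the HIF-target score, and r between the scores from 0.89 to 0.94. With each gene divided by its SD the differences were -0.91 and -0.66. Over the settings 46 to 55 of 56 member probes lay lower in Aid-/-.

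Of 20 members followed through all settings, 12 kept the direction of their genotype difference. It turned for Gapdh (0.0027 with quantile normalization), Hk1 (-0.22 in 979B and 979F alone, -0.049 to 0.14 leaving out each clone), Pfkp (0.25 with slide as a fixed block and on slide 3 alone), Aldoc (0.0025 in the same settings), Car9 (0.12 in the same settings), Vegfa (-0.27 to 0.081 leaving out each clone), Adm (0.017 with the percentile over detected probes, -0.24 to 0.16 leaving out each clone) and Kdm3a (0.069 with quantile normalization, 0.040 with the percentile over detected probes, 0.074 with slide as a fixed block and on slide 3 alone, 0.016 with slide as a random block, -0.12 to 0.044 leaving out each clone). No paired analysis was possible because the clone numbers do not pair clones of the 2 genotypes.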
